A study of Mus musculus with 8 samples.

Results

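The immediate early response genes described here are *Atf3*, *Fos*, *Fosb*, *Jun*, *Junb*, *Jund*, *Egr1*, *Ier2*, *Zfp36* and *Btg2*. They were found in the expression table by their gene names, and all 10 are among its 47643 genes. Their RNA was measured in quadriceps muscle of 4 *Nup210*-/- and 4 *Nup210*+/+ mice, with 1 library per mouse. Nup210 is a transmembrane protein of the nuclear pore complex. The *Nup210*-/- line is a constitutive knockout made by Hprt-Cre recombination of a loxP-flanked exon of *Nup210*, both genotypes are labelled C57BL/6 and were backcrossed to C57BL/6J, and the age and sex of these mice are not given in the sources used here. The muscle was not injured or treated as far as the labels state.

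Immediate early genes are transcribed within minutes of a stimulus such as growth factors, stretch, contraction or tissue damage, from regulators that are already present in the cell, and their mRNAs are short-lived. Most of their products are transcription factors. The Fos proteins (Fos, Fosb) pair with the Jun proteins (Jun, Junb, Jund) to form AP-1, Atf3 is a stress-induced factor of the ATF/CREB family that also pairs with Jun proteins, and Egr1 is a zinc finger factor. Zfp36 (tristetraprolin) and Btg2 act on mRNA instead, since Zfp36 binds AU-rich elements in 3′ untranslated regions (3′ UTRs) and Btg2 joins the CCR4-NOT deadenylase. In skeletal muscle these genes are known for their rapid response to exercise and injury.

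Many of the members have few exons and AU-rich mRNA ends, features that the selection by name did not use. In GENCODE M21 on GRCm38 (mm10), *Jun*, *Junb*, *Jund* and *Ier2*, which is 4 of 10, had 1 exon in the principal transcript. Of 12391 protein-coding genes tested, 2.5% had 1 exon, and the median was 9 exons. Genes other than the members were read in their longest coding transcript, principal or not, also for the 3′ UTR shares below. The members and the shares beside them thus rest on unlike choices of transcript. The 7 letters TATTTAT, the core to which Zfp36-family proteins bind, were searched on the transcribed strand and occurred at least once in the 3′ UTR of 7 members, against 30.8% of 11846 tested genes whose 3′ UTR has at least 100 bases. *Zfp36* itself held 3 copies, which 3.96% of those genes reach. *Fos* held 2 copies, *Atf3*, *Fosb*, *Jun*, *Jund* and *Btg2* held 1, and *Junb*, *Egr1* and *Ier2* held 0. A match of these letters is a description and not a measured binding site.

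The stretches around the first TATTTAT of the 3 members on which the results turn are shown to place this element in the mRNAs whose levels follow. Capitals mark TATTTAT, and the sequences are 25 bases of the 3′ UTR read 5′ to 3′ along the mRNA (GENCODE M21). They lie at chr1:191170340-191170364 on the minus strand for *Atf3*, at chr7:28376968-28376992 on the minus strand for *Zfp36*, and at chr8:70700361-70700385 on the plus strand for *Jund*.
Atf3: aatattactTATTTATcccagtatt
Zfp36: tgggcccttTATTTATgacgacttt
Jund: attccgcccTATTTATgtttctact

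Promoters were read from RefSeq (GRCm38.p6), where 8 of the 10 members matched. The entries of *Egr1* and *Ier2* are not used here. In the 250 bases before the annotated start, both strands were searched for the cAMP response element TGACGTCA (CRE), its shorter form TGACG, the AP-1 site TGACTCA or TGAGTCA, the CArG box to which serum response factor binds, TATAAA, the GC box GGGCGG and the Egr1 site GCGGGGGCG or GCGTGGGCG. The shorter form lies within the CRE, so their counts overlap, and the GC box can lie within the Egr1 site. The GC box was found in 6 members against 32.7% of 32851 promoters. The windows of the members were 58.4 to 73.2% G and C, except that of *Jund* at 47.6%, and the median over all promoters was 52.4%. The counts of motifs were not adjusted for this. The shorter CRE was found in *Atf3*, *Fos*, *Fosb*, *Junb* and *Btg2*, 5 members, against 17.8% of promoters. The full CRE was found in *Btg2* and in 1.55% of promoters, the CArG box in *Zfp36* and in 1.47%, TATAAA in *Fos* and in 12.4%, and the Egr1 site in *Fosb* and *Zfp36* and in 3.06%. The AP-1 site was in no member and in 4.46% of promoters. Absence of these letters says only that they are not in this window. The RefSeq starts of *Atf3* (chr1:191183333) and *Zfp36* (chr7:28379228) lie within the GENCODE gene spans given below. The RefSeq start of *Jund* (chr8:70697739) lies before its GENCODE span. These windows may therefore not be the bases before the start of the GENCODE models. The windows of *Atf3*, *Fosb* and *Zfp36* also hold exon bases of the same gene.

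The promoters are given in full for *Atf3*, whose genotypes were farthest apart, and for *Fos*, whose level spread widely in both genotypes. Short stretches are given for *Zfp36* and *Btg2* around the element that few promoters hold. Capitals mark a CRE, its shorter form, the CArG box or TATAAA, as named above. The *Atf3* sequence is chr1:191183334-191183583 on the minus strand and the *Fos* sequence chr12:85473640-85473889 on the plus strand. The 30 bases of *Zfp36* are chr7:28379267-28379296 and those of *Btg2* chr1:134079303-134079332, both on the minus strand.
Atf3: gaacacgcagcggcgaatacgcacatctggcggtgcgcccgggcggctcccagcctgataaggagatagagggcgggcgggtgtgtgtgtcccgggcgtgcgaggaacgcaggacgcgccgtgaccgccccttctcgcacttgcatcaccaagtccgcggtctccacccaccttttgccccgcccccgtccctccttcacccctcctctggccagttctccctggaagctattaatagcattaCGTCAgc
Fos: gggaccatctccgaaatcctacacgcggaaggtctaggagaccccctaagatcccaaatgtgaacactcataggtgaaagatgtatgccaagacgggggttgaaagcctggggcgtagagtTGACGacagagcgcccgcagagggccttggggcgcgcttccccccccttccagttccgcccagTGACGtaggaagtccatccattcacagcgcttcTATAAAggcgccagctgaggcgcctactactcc
Zfp36: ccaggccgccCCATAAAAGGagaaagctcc
Btg2: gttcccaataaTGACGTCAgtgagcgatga

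Expression is given as TPM (transcripts per 1000000), an estimate per transcript length brought to that total in each library, so that levels can be set side by side between genes. The number of reads behind a value is unknown, so the error of a value is judged from the 4 mice of its genotype. In each library 18185 to 19357 genes had a value above 0. The 10 markers of skeletal muscle fibers, among them *Acta1* and *Myh4*, were all expressed and summed to 82000 to 95300 TPM. Skeletal muscle as the tissue was thus borne out, while these markers do not check which muscle was taken. *Nup210* itself was at 8.81 to 11.93 TPM in the libraries labelled *Nup210*-/- and at 5.71 to 10.11 TPM in *Nup210*+/+, so its RNA was not lower (log2 fold change 0.44 ± 0.147 (SE), limma adjusted p = 0.231). A value over the whole gene can hold reads of the exons that were not deleted and does not check the deletion. *Nup210*+/+ replicate 2 stood apart in 6 markers of granulocyte precursors, which summed to 382 TPM there and to at most 2.12 TPM in any other library.

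*Jun* was the most abundant member, at a mean of 39.9 TPM over the 8 libraries, and exceeded *Btg2* (18.2 TPM) in all 8. *Fosb* was the least abundant, at 0.311 TPM, below *Egr1* in all 8. The order between them was *Btg2*, *Jund* (16.4 TPM), *Fos* (12.0 TPM), *Zfp36* (10.8 TPM), *Junb* (8.30 TPM), *Atf3* (6.84 TPM), *Ier2* (6.32 TPM) and *Egr1* (6.22 TPM). Of these neighbours, *Zfp36* exceeded *Junb* in 7 libraries and *Btg2* exceeded *Jund* in 6. Every other pair was in this order in only 4 or 5 of the 8. Within *Nup210*-/-, *Zfp36* (12.04 to 16.01 TPM) lay above *Junb* (6.9 to 10.93 TPM) without overlap. In the same genotype *Junb* lay above *Atf3* (2.13 to 5.26 TPM) without overlap. In *Nup210*+/+ both pairs overlapped. The place of *Atf3* depended on genotype. Its mean of 10.5 TPM in *Nup210*+/+ was above those of *Zfp36* (8.4 TPM) and *Junb* (8.08 TPM), and its mean of 3.20 TPM in *Nup210*-/- was below those of *Ier2* (5.95 TPM) and *Egr1* (7.85 TPM). Summed over the 10 members, the level was 108 to 149 TPM in *Nup210*-/- and 112 to 161 TPM in *Nup210*+/+, with overlap.

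**Figure D1:**
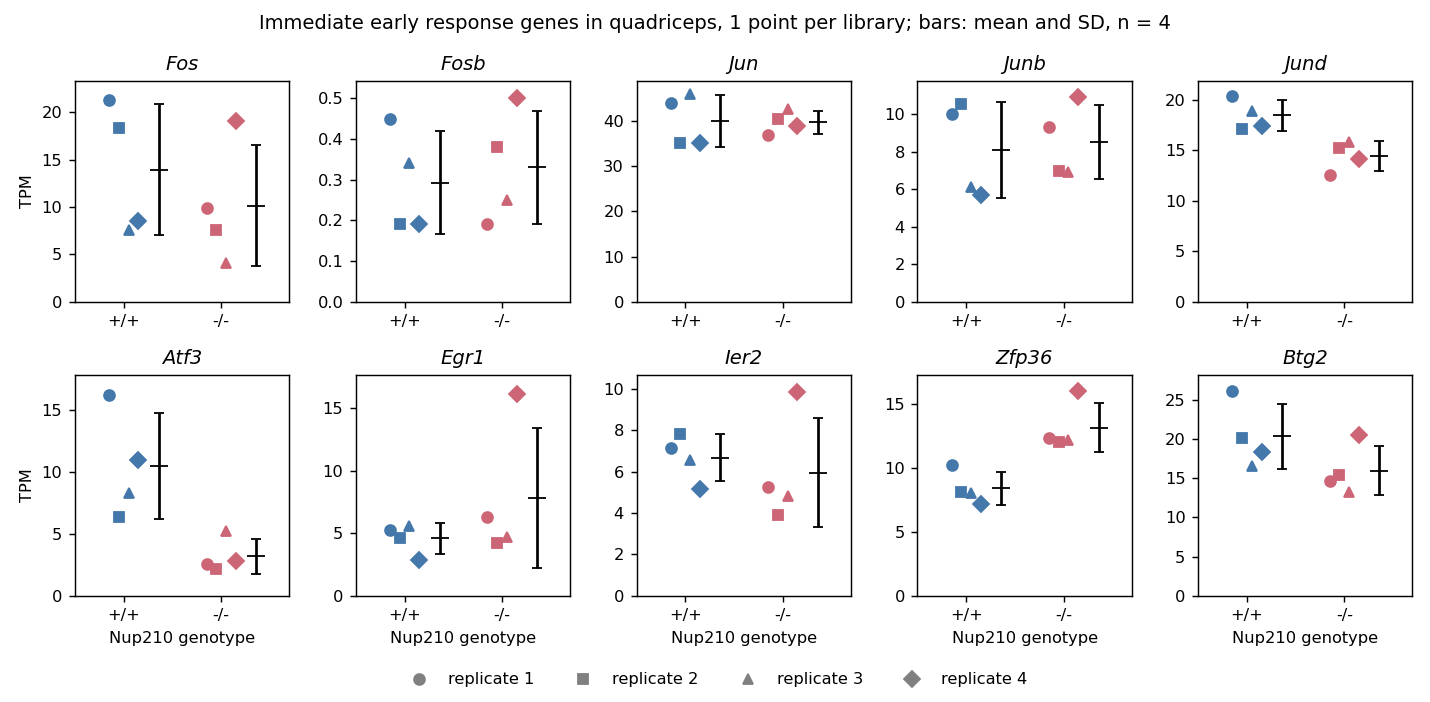
TPM of each member (vertical axes, linear from 0 and scaled per gene) in the 4 Nup210+/+ and 4 Nup210-/- libraries; each point is 1 library with its replicate number as the symbol, and the bars give mean and SD. *Atf3* and *Jund* were lower and *Zfp36* higher in every *Nup210*-/- library than in any *Nup210*+/+ library, and the other 7 members overlapped.

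The comparison of genotypes asked whether these genes differed in muscle without Nup210. *Atf3* was 3.28-fold higher in *Nup210*+/+ than in *Nup210*-/- muscle by mean TPM, and *Jund* was also lower in *Nup210*-/-. *Zfp36* was 1.56-fold higher in *Nup210*-/-. No member passed an adjusted p of 0.05 over all genes. The test was limma on log2(scaled TPM + 1), where TPM were scaled per library and the 14229 genes whose mean TPM reached 0.5 entered. This scale makes the change of a low gene look smaller than it is. At an adjusted p under 0.05, 16 genes were called, which is 0.112% of those tested, and 0 of the 9 members tested were among them. *Fosb* was below the limit on mean TPM and was not tested. At an unadjusted p under 0.05 there were 2 lower members, *Atf3* and *Jund*, beside 7.18% of all genes, and 1 higher member, *Zfp36*, beside 7.00%. The same 3 members had no overlap between genotypes, on scaled values and on TPM, 2 lower beside 4.60% of all genes and 1 higher beside 4.78%. The median log2 fold change was -0.12 over the 9 members and -0.01 over all genes tested, with 5 members lower and 4 higher by estimate, so the estimates lay on both sides of 0. Without *Nup210*-/- replicate 2 the median over the members was 0.04, and without *Nup210*-/- replicate 4 it was -0.25.

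**Figure D2:**
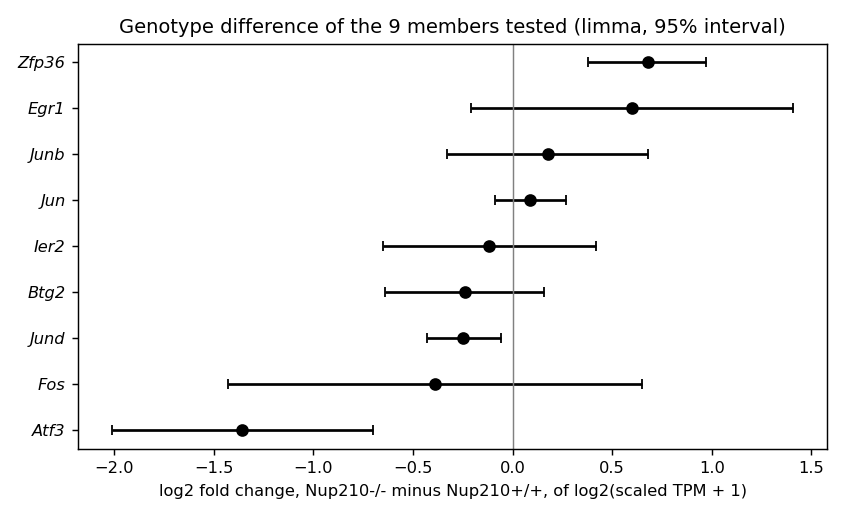
Log2 fold change of the 9 members tested, Nup210-/- minus Nup210+/+, on the log2(scaled TPM + 1) scale (horizontal axis), ordered by value; bars are 95% intervals from limma with 4 libraries per genotype. The intervals of *Atf3* (-2.01 to -0.70), *Jund* (-0.43 to -0.06) and *Zfp36* (0.38 to 0.97) do not hold 0, without adjustment for the number of genes.

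*Atf3* (ENSMUSG00000026628, chr1:191170296-191218039, minus strand, 4 exons), the stress-induced ATF family factor, was at 16.26, 6.39, 8.33 and 10.93 TPM in *Nup210*+/+ replicates 1 to 4. It was at 2.57, 2.13, 5.26 and 2.83 TPM in *Nup210*-/- replicates 1 to 4. The highest *Nup210*-/- library was replicate 3 and the lowest *Nup210*+/+ library replicate 2, and the genotypes did not overlap. The means were 10.5 ± 4.28 TPM and 3.20 ± 1.41 TPM (SD, n = 4 each). The log2 fold change was -1.36 ± 0.291 (SE), with a limma unadjusted p of 0.00116 and an adjusted p of 0.117, and 0.246% of all genes tested had a lower estimate. The two-sided exact permutation test over 70 labelings gave p = 0.0286, the smallest it can give with 4 against 4. The difference was in the same direction with any 1 library left out, from -1.13 without *Nup210*+/+ replicate 1 to -1.55 without *Nup210*-/- replicate 3.

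Markers of leukocytes and fibroblasts also had lower estimates in *Nup210*-/-, and 0 of those tested passed the adjusted threshold of the limma fit. Summed TPM of 21 leukocyte markers was 158 to 178 in *Nup210*-/- and 188 to 371 in *Nup210*+/+. *Lyz2* alone was at 92.52 to 105.04 TPM and at 116.65 to 232.69 TPM, a large part of these sums. The sums were not compared without it. All 14 leukocyte markers that were tested had a lower estimate in *Nup210*-/- (7 without overlap). The extremes were *Coro1a* (-0.78) and *Cd68* (-0.21), whose genotypes overlapped. *Coro1a* was at 26.97 TPM in *Nup210*+/+ replicate 2 and at 4.15 to 8.79 TPM in the other libraries. Summed TPM of 9 fibroblast markers was 761 to 898 against 934 to 1560, with all 9 estimates lower (2 without overlap; from -0.56 for *Col1a2* to -0.18 for *Lum*). In bulk tissue, fewer cells of a type and less RNA per cell cannot be told apart, and the part of these cells in the *Atf3* and *Jund* results was not tested. In *Nup210*+/+ replicates 1 to 4 the leukocyte sums were 239, 342, 371 and 188 TPM and the fibroblast sums 1120, 1040, 1560 and 934 TPM, beside the *Atf3* levels given above. Without *Nup210*+/+ replicate 2, the library with granulocyte precursor RNA, the *Atf3* log2 fold change was -1.54 (limma adjusted p = 0.0915).

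*Zfp36* (ENSMUSG00000044786, chr7:28376784-28380253, minus strand, 2 exons) encodes tristetraprolin, which directs AU-rich mRNAs to decay and whose own mRNA carries the TATTTAT element shown above. It was at 12.32, 12.04, 12.19 and 16.01 TPM in *Nup210*-/- replicates 1 to 4 and at 10.25, 8.14, 8.01 and 7.22 TPM in *Nup210*+/+. All *Nup210*-/- libraries were above all *Nup210*+/+ libraries, and replicate 4 stood above the other 3 of its genotype, which were close together. The means were 13.1 ± 1.92 and 8.4 ± 1.3 TPM (SD, n = 4 each). The log2 fold change was 0.68 ± 0.131 (SE; limma unadjusted p = 0.000588, adjusted p = 0.101), and the exact permutation p was 0.0286. Without *Nup210*-/- replicate 4 the log2 fold change was 0.57 and the genotypes still did not overlap, while the exact permutation p was then 0.0571. Summed TPM of 10 muscle fiber markers was 88700 to 95300 in *Nup210*-/- and 82000 to 87600 in *Nup210*+/+. All 10 estimates were higher in *Nup210*-/-, from 0.07 for *Mb* to 0.30 for *Myh4* (the estimate of *Mb* was -0.02 with TPM as deposited and -0.01 with library weights). At an unadjusted limma p under 0.05 there were 3 higher (7.00% of all genes), and 0 passed an adjusted p of 0.05. Only 1, *Acta1*, was higher without overlap (4.78% of all genes). Mean TPM in *Nup210*-/- and *Nup210*+/+ was 3180 and 3230 for *Mb* and 88.9 and 89.9 for *Ttn*. The part of muscle fibers in the *Zfp36* result was not tested. Endothelial markers had 5 lower and 5 higher estimates (*Tek* -0.24, *Esam* 0.41), and satellite cell markers 1 lower and 5 higher (*Sdc4* -0.36, *Cdh15* 0.33).

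*Jund* (ENSMUSG00000071076, chr8:70698949-70700616, plus strand, 1 exon) encodes the Jun protein that is expressed in many resting cells. Its levels were 20.41, 17.06, 18.9 and 17.42 TPM in *Nup210*+/+ replicates 1 to 4 and 12.51, 15.23, 15.84 and 14.12 TPM in *Nup210*-/-. The highest *Nup210*-/- value, in replicate 3, was below the lowest *Nup210*+/+ value, in replicate 2. The log2 fold change was -0.25 ± 0.0833 (SE; limma unadjusted p = 0.0157, adjusted p = 0.238), from means of 14.4 ± 1.46 and 18.4 ± 1.53 TPM (SD, n = 4 each), and the exact permutation p was 0.0286. The antisense gene *Gm11175* overlaps 877 bases, 52.6% of the *Jund* transcript, on the other strand and was at 22.45 to 35.48 TPM, above *Jund* itself. Whether the estimates used strand is not given in the sources used here, so the reads of these overlapping genes may not be separate. *Gm11175* was at 22.65 to 27.4 TPM in *Nup210*-/- and 22.45 to 35.48 TPM in *Nup210*+/+, with overlap.

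The other Jun genes overlapped between genotypes. *Jun* (ENSMUSG00000052684, chr4:95049034-95052222, minus strand, 1 exon), the founding AP-1 subunit, was at 36.9, 40.43, 42.78 and 38.93 TPM in *Nup210*-/- and at 44.15, 35.18, 46.02 and 35.18 TPM in *Nup210*+/+. Its highest library had 1.31 times its lowest, the narrowest range of the members, and the log2 fold change was 0.09 (95% interval -0.09 to 0.27, limma adjusted p = 0.636) and -0.00 with TPM as deposited. Its antisense neighbour *Junos* shares 232 bases, 7.3% of the transcript, and was at 4.77 to 8.69 TPM. *Junb* (ENSMUSG00000052837, chr8:84974484-84978718, minus strand, 1 exon), a paralog that can restrain Jun, was at 9.31, 6.95, 6.9 and 10.93 TPM in *Nup210*-/- and at 9.99, 10.54, 6.09 and 5.69 TPM in *Nup210*+/+. Within each genotype 2 libraries were high and 2 low, and the log2 fold change was 0.18 (95% interval -0.33 to 0.68, limma adjusted p = 0.754). It was 0.04 without *Nup210*-/- replicate 4 or *Nup210*+/+ replicate 3 and 0.30 without *Nup210*+/+ replicate 2. The ratio of *Jun* to *Jund* was 2.65 to 2.95 in *Nup210*-/- and 2.02 to 2.43 in *Nup210*+/+, without overlap. With the narrow range of *Jun*, this ratio largely restates the *Jund* difference and is not a separate result.

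*Fos* (ENSMUSG00000021250, chr12:85473890-85477273, plus strand, 4 exons), the AP-1 subunit most used as a marker of recent stimulation, varied within each genotype. It was at 9.88, 7.54, 4.06 and 19.03 TPM in *Nup210*-/- replicates 1 to 4 and at 21.3, 18.33, 7.55 and 8.53 TPM in *Nup210*+/+. The highest library had 5.25 times the lowest, and both genotypes held high and low libraries. The log2 fold change was -0.39 with a 95% interval of -1.43 to 0.65 (limma adjusted p = 0.730; exact permutation p = 0.543), an interval that holds large differences in both directions. Leaving out 1 library moved it between -0.75, without *Nup210*-/- replicate 4, and -0.05, without *Nup210*-/- replicate 3. *Fosb* (ENSMUSG00000003545, chr7:19302696-19310051, minus strand, 4 exons), its paralog, was near the floor of the table at 0.19, 0.38, 0.25 and 0.5 TPM in *Nup210*-/- and 0.45, 0.19, 0.34 and 0.19 TPM in *Nup210*+/+. The genotypes overlapped, and the exact permutation p was 0.514.

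*Egr1* (ENSMUSG00000038418, chr18:34859823-34864984, plus strand, 2 exons), the zinc finger factor, was at 6.33, 4.21, 4.72 and 16.13 TPM in *Nup210*-/- and at 5.28, 4.66, 5.6 and 2.82 TPM in *Nup210*+/+. A single library, *Nup210*-/- replicate 4, was far above the other 7. The log2 fold change was 0.60 (95% interval -0.21 to 1.41, limma adjusted p = 0.472) and 0.21 without that library. *Ier2* (ENSMUSG00000053560, chr8:84661331-84662852, minus strand, 1 exon), a nuclear protein of the early response, was at 5.24, 3.9, 4.83 and 9.84 TPM in *Nup210*-/- and at 7.14, 7.83, 6.58 and 5.18 TPM in *Nup210*+/+. Replicate 4 was again the highest *Nup210*-/- library, and the log2 fold change was -0.12 (95% interval -0.65 to 0.42, limma adjusted p = 0.850), -0.37 without it and 0.04 without replicate 2 of the same genotype. *Btg2* (ENSMUSG00000020423, chr1:134075170-134079120, minus strand, 2 exons), the antiproliferative deadenylation factor, was at 14.69, 15.45, 13.26 and 20.49 TPM in *Nup210*-/- and at 26.16, 20.17, 16.62 and 18.37 TPM in *Nup210*+/+. Its log2 fold change was -0.24 (95% interval -0.64 to 0.16, limma adjusted p = 0.567), and it was -0.37 without *Nup210*-/- replicate 4 and -0.11 without *Nup210*+/+ replicate 1.

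Several members were high or low in the same mice of a genotype. *Nup210*-/- replicate 4 lay above its genotype's mean by 1.07 log2 units in *Fos*, 1.18 in *Egr1*, 0.76 in *Ier2*, 0.39 in *Junb*, 0.40 in *Btg2* and 0.32 in *Zfp36*. In the same library *Jun* and *Jund* lay at 0.02 and *Atf3* at -0.04. In *Nup210*+/+, replicate 1 was above its mean in all 10 members, by 0.71 log2 units in *Fos* and 0.67 in *Atf3*. *Atf3* was thus not among the genes that were high in *Nup210*-/- replicate 4.

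**Figure D3:**
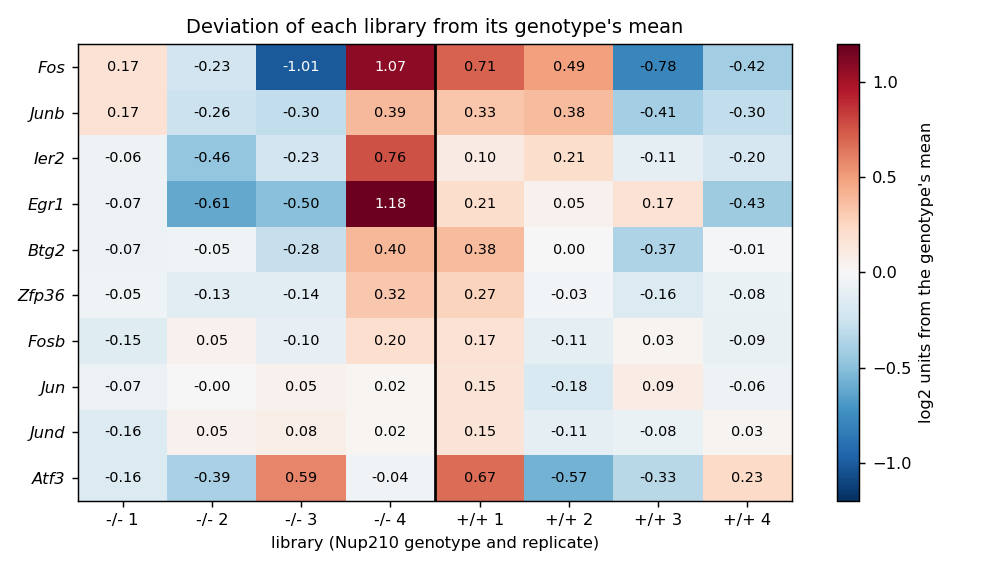
Deviation of each library (columns, genotype and replicate) from the mean of its genotype for each member (rows), in log2 units of scaled TPM + 1, with the value in each cell; red is above and blue below the mean. *Fos*, *Junb*, *Ier2*, *Egr1*, *Btg2* and *Zfp36* are all above 0 in *Nup210*-/- replicate 4, where *Atf3* is at -0.04.

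Correlations of these deviations over the 8 libraries describe this, and the 8 points share genotype means and are few. Pearson r was 0.95 between *Egr1* and *Ier2*, 0.94 between *Zfp36* and *Btg2*, 0.93 between *Fos* and *Junb* and 0.91 between *Fos* and *Btg2*. It was also 0.74 between *Atf3* and *Jund*, 0.65 between *Jun* and *Jund*, 0.61 between *Atf3* and *Jun* and 0.74 between *Fosb* and *Zfp36*, and -0.09 between *Atf3* and *Fos*. Across the libraries as measured, with the genotype difference left in, *Zfp36* and *Btg2* had r of 0.02 where the deviations gave 0.94. As measured, r was -0.60 without the 2 libraries farthest from the *Zfp36* median. The highest deviations of *Btg2* and *Zfp36* were 0.40 and 0.32 in *Nup210*-/- replicate 4 and 0.38 and 0.27 in *Nup210*+/+ replicate 1. Among *Nup210*-/- replicates 1 to 3, replicate 2 had the most *Btg2* and the least *Zfp36* by TPM. The values of *Egr1* and *Ier2* as measured gave r of 0.73, and 0.17 without the 2 libraries farthest from the median.

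By the same measure over 8 libraries, but with the genotype difference left in, the genes most like *Atf3* were *Gng11* (r = 0.994), *Tlr5* (0.972), *Abra* (0.967), *Lmnb2* (0.961) and *Serpinh1* (0.958). *Abra*, an actin-binding protein of striated muscle, was lower in *Nup210*-/- at 177 to 217 TPM against 286 to 334 TPM, with a log2 fold change of -0.61 (limma adjusted p = 0.0490, and 0.0551 to 0.160 with 1 library left out). *Serpinh1*, a collagen chaperone, was at 45.0 to 54.4 TPM against 70.5 to 98.5 TPM (limma adjusted p = 0.0599). Among the genes most like *Zfp36* were *Map1lc3a* (r = 0.966), *Masp1* (0.955), *Hgs* (0.950) and *Gm43076* (0.949). Those most like *Fos* were *Rpgr* (r = 0.949), *Zfos1* (0.923), *St5* (0.922), *Pcdhga4* (0.914) and *Rbm3* (0.907). For *Atf3* and *Zfp36* the libraries fall into 2 genotypes, so these r partly restate the difference between them, and the highest of 14229 r over 8 points are high by selection.

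The mix of AP-1 and ATF mRNAs in a library followed from these values. Of the summed TPM of *Fos*, *Fosb*, *Jun*, *Junb*, *Jund* and *Atf3*, *Atf3* made up 2.93 to 7.00% in *Nup210*-/- and 7.29 to 14.4% in *Nup210*+/+, a narrow gap. The 3 Jun genes made up 74.1 to 87.3% and 66.2 to 81.4%, with overlap. The ratio of *Zfp36* to *Atf3* was 2.32 to 5.66 in *Nup210*-/- and 0.630 to 1.27 in *Nup210*+/+, so *Zfp36* was the more abundant mRNA in every *Nup210*-/- library, and *Atf3* in 3 of 4 *Nup210*+/+ libraries.

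**Figure D4:**
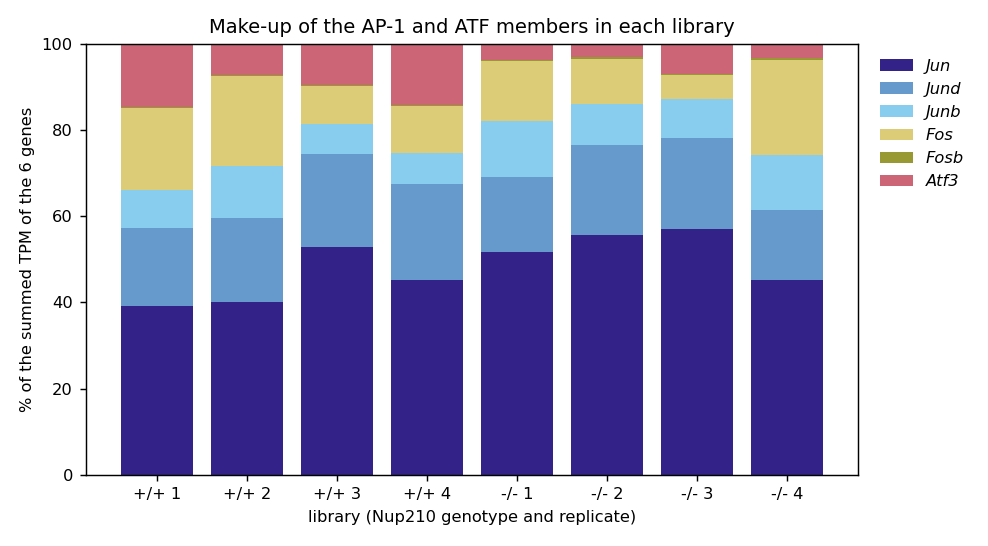
Share of each of 6 AP-1 and ATF mRNAs in their summed TPM (vertical axis, percent) for each library (horizontal axis); colors mark the genes. The *Atf3* segment is 7.29 to 14.4% in the *Nup210*+/+ libraries and 2.93 to 7.00% in the *Nup210*-/- libraries.

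The other genes of these pathways were counted in the same limma fit, in lists written with earlier results of these data known, and overlap of genotypes was read on the scaled values. Over all genes tested, 7.18% were lower and 7.00% higher at an unadjusted p under 0.05, and 4.60% were lower and 4.78% higher without overlap, and the counts of each list stand beside these shares. Of 20 tested AP-1 and ATF partners that are not members, 15 had a lower and 5 a higher estimate in *Nup210*-/-, with a median log2 fold change of -0.09. On scaled values 0 were without overlap, while *Ddit3* and *Atf4* were lower without overlap on TPM as deposited. *Ddit3*, a stress-induced factor, was at 14.38 to 19.29 TPM in *Nup210*-/- and 19.41 to 27.72 TPM in *Nup210*+/+ and was the 1 of these at an unadjusted limma p under 0.05 (log2 fold change -0.35, adjusted p = 0.203). The lowest estimate of this list was that of *Batf* (-0.40, limma adjusted p = 0.540). *Atf4*, a factor that acts on the *Atf3* gene in the integrated stress response, had a log2 fold change of -0.15 (limma adjusted p = 0.475). It was at 103.75 to 117.37 TPM in *Nup210*-/- and 121.38 to 144.07 TPM in *Nup210*+/+.

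Of 46 other immediate early genes tested, 27 had a lower and 19 a higher estimate, and 0 passed an adjusted p of 0.05. At an unadjusted p there were 8 lower and 6 higher. The extremes were *Nr4a3*, an orphan nuclear receptor, at -0.78, and *Gadd45g*, a stress sensor, at 0.79 (limma adjusted p = 0.160). *Nr4a3* was at 1.89 to 4.31 TPM in *Nup210*-/- and at 2.34 to 16.98 TPM in *Nup210*+/+, and its level in the latter was high in replicates 1 and 3. Those without overlap on scaled values, named after their values were seen, were *Dusp6* and *Trib1*, lower at -0.36 and -0.28, and *Sgk1*, *Gadd45a* and *Nfkbia*, higher at 0.43, 0.32 and 0.30. On TPM as deposited, *Dusp6* and *Trib1* were again without overlap, while *Sgk1* (120.05 to 145.64 against 81.09 to 124.0 TPM), *Gadd45a* and *Nfkbia* overlapped. *Ier5*, *Nfil3* and *Ppp1r15a*, also named after their values were seen, were lower without overlap on TPM only. *Dusp6* is a phosphatase of ERK, *Sgk1* a kinase and *Nfkbia* an inhibitor of NF-κB.

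Of 39 tested regulators upstream of immediate early genes, such as serum response factor, its cofactors and the MAP kinases, 29 had a higher estimate and 10 a lower one (median 0.06). There were 9 higher and 1 lower of the 39 at an unadjusted p under 0.05 (7.00% and 7.18% of all genes) and 6 higher and 2 lower without overlap (4.78% and 4.60% of all genes), and 0 at an adjusted p under 0.05. The genes without overlap were read on scaled values and are named here after their values were seen. On TPM as deposited, the 6 higher genes (*Mef2a*, *Mef2c*, *Mef2d*, *Map2k6*, *Rps6ka2* and *Camk2g*) overlapped between genotypes. Of the 2 lower genes, *Elk3* overlapped on TPM and *Rps6ka4* did not. On TPM only, *Camk2b* was higher and *Crtc2* lower without overlap. The extremes of this list were *Creb1* (-0.22) and *Rps6ka5* (0.34). *Srf*, which binds the CArG box, was at -0.01. Of 22 genes of ATF4 and the integrated stress response, 13 were lower and 9 higher by estimate, between *Psat1* (-1.05) and *Ddit4* (0.73), with 3 lower and 3 higher at an unadjusted limma p under 0.05 and 0 past the adjusted threshold. *Psat1* was at 22.34 TPM in *Nup210*+/+ replicate 2 and at 1.45 to 4.03 TPM elsewhere.

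The mRNA decay machinery with which Zfp36 and Btg2 work had 23 lower and 7 higher estimates among 30 tested genes, a median of -0.09, 3 lower and 2 higher at an unadjusted limma p under 0.05, and 0 past an adjusted p of 0.05. The extremes were *Pabpc1*, a poly(A)-binding protein, at -0.39 (limma adjusted p = 0.437), and *Tob2*, a Btg2 relative, at 0.37. *Pabpc1* was at 157.14 TPM in *Nup210*+/+ replicate 2 and at 61.69 to 97.33 TPM elsewhere, and its genotypes overlapped. *Tob2* was at 63.26 to 68.87 TPM in *Nup210*-/- and 38.79 to 63.0 TPM in *Nup210*+/+. Beside the higher *Zfp36*, its paralogs *Zfp36l1* and *Zfp36l2* had log2 fold changes of -0.24 and -0.31 (limma adjusted p = 0.298 and 0.329), both named after their values were seen. Among 16 heat shock genes, 11 were lower and 5 higher by estimate (median -0.12), 6 of them lower at an unadjusted p and 3 without overlap. *Hsp90aa1*, the inducible cytosolic Hsp90, fell to 53.15 to 67.5 TPM in *Nup210*-/- against 103.74 to 168.93 TPM in *Nup210*+/+ (log2 fold change -0.98, limma adjusted p = 0.0497) and was the 1 called in any of these lists, while *Cryab* was at 0.14. The call of *Hsp90aa1* lay at the threshold and was lost with upper-quartile scaling (limma adjusted p = 0.0502), without the trend (0.105) and with both wider filters (0.0588 and 0.078).

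**Figure D5:**
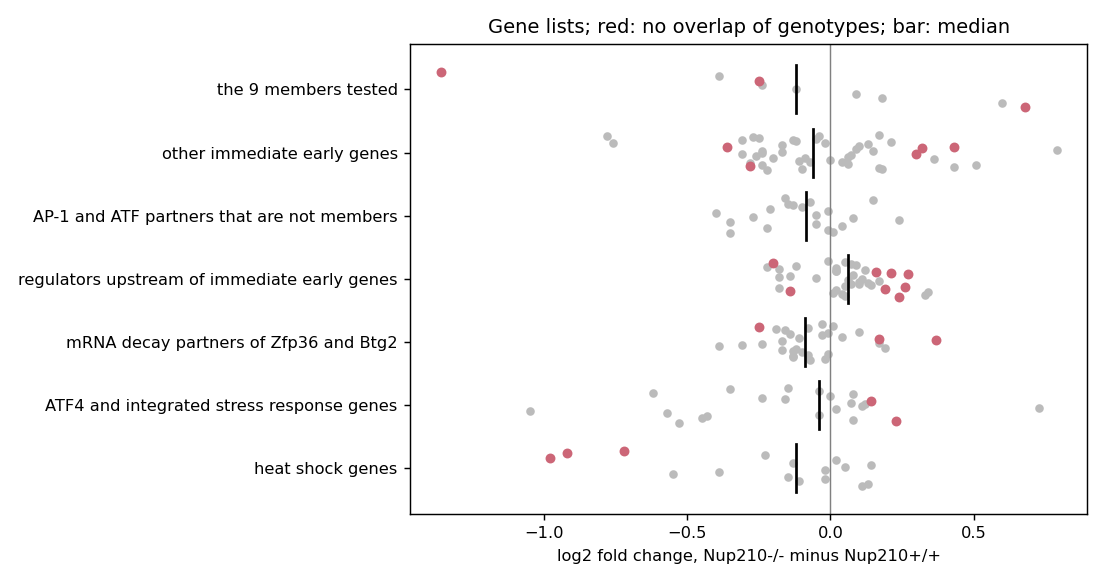
Log2 fold change, Nup210-/- minus Nup210+/+ (horizontal axis), of the 9 members tested and of the genes of 6 lists (rows); each point is 1 gene, red where the genotypes did not overlap, and the bar is the median. The medians lie between -0.12 and 0.06, and the *Atf3* and *Zfp36* points lie at -1.36 and 0.68.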

How the data were processed

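Quadriceps RNA of 4 *Nup210*-/- and 4 *Nup210*+/+ mice was compared. The authors selected poly(A) RNA, made directional libraries, read them single-end, trimmed with cutadapt 2.3, aligned to mm10 with STAR 2.7.0d and estimated expression with RSEM 1.3.1, tools and versions per the submitters' processing notes. The authors deposited TPM per gene and library. They tested counts with DESeq2, which are not used here. At its thresholds of fold change and q, the paper reports more changed genes than were called here. The calls given here are those of the fit on TPM only. Depth is unknown. TPM were scaled by the median of ratios over 15225 genes (factors 0.936 to 1.12), and the 14229 genes whose mean TPM reached 0.5 were compared on log2(scaled TPM + 1) with limma 3.58.1 in R 4.3.3 (eBayes with trend, genotype only, Benjamini-Hochberg adjustment). Single members were compared with two-sided exact permutation tests. P-values measure the spread between these mice. The scripts were tested on simulated data. Alternatives were pseudocounts, filters, scalings, variance models, library weights, a replicate block and each library left out. All members were named, and in other lists each called gene and the extremes, except that some genes are not reported here. The members and lists were chosen with earlier results of these data known. Coordinates are from GENCODE M21, a later release than the authors' annotation. Figures used matplotlib 3.10.9 in Python 3.11.15.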

Additional observations from a re-analysis of the deposited data

Results flagged for a closer look

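*Zfp36* in *Nup210*-/- replicate 4, at 16.01 TPM, lay far from the other 3 libraries of its genotype, its gap to the nearest being 0.929 of the range of the 4. *Zfp36* was examined with the other members in 20 groups of 4 libraries, where chance alone gives about 1 such library, and 1 was found. In the same library *Fos* was at 19.03 TPM, *Egr1* at 16.13 TPM, *Ier2* at 9.84 TPM and *Junb* at 10.93 TPM, each the highest of its genotype.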

How the results depend on the processing

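No member passed an adjusted p of 0.05 in the limma fit under any of 20 alternatives, and the median over the members tested was -0.25 to 0.04, above 0 only without *Nup210*-/- replicate 2. *Atf3* ranged from -1.60 to -1.13, with adjusted p from 0.0504 (library weights) to 0.291. *Zfp36* ranged from 0.57 to 0.77 (0.0869 to 0.263) and *Jund* from -0.34 to -0.19 (0.119 to 0.450). With 1 library left out the exact permutation p of *Atf3* was 0.0571 without *Nup210*-/- replicate 1 or 2 or *Nup210*+/+ replicate 1 or 4, and 0.0286 otherwise. For *Jund* it was 0.0571 without *Nup210*-/- replicate 1. All 3 stayed without overlap. The number of genes called over all genes, 16, was 1 with any TPM above 0, 0 with a mean TPM of at least 0.1 (2244 at an unadjusted p under 0.05), 27 with a mean TPM of at least 1, 0 without the trend (1952), 84 with library weights, and 0 to 10 with 1 library left out. Fewer samples then enter. The replicate numbers are shared by label only. With the replicate number as a block, 0 genes were called (1850 at an unadjusted p under 0.05). Deviations of same-numbered libraries correlated at -0.033 to 0.086, and only number 4 correlated best with its own number. Reversed estimates were *Jun* with TPM as deposited (-0.00, exact permutation p = 0.971), *Mb* with TPM as deposited (-0.02) and library weights (-0.01), and, with 1 library left out, *Ier2* (-0.37 to 0.04), *Mb* (-0.04 to 0.17), *Rpgr* (-0.07 to 0.05) and *St5* (-0.15 to 0.05). The exact permutation p ranged then from 0.0857 to 0.943 for *Ier2* and from 0.286 to 1.0 for *Fosb*. The adjusted p of *Hsp90aa1* and *Abra* was above 0.05 with any 1 library left out, from 0.0551 to 0.171, and with both wider filters, no trend or the replicate block, from 0.0556 to 0.232, and *Serpinh1* passed with TPM as deposited (0.0462) and library weights (0.0244). The causes were not tested. Depth is unknown and 4 mice per genotype limit the precision.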
